A study of Mus musculus with 786 samples.

Results

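The 44 mitosis and spindle genes described here encode the kinases, motors and chromosome proteins that carry a cell through division. They were chosen by name: a gene entered when its name in the deposited tables equalled 1 of the 44 names. All 44 were found among the 21664 genes of the single-cell tables, and 41 among the 18855 genes of the bulk table, where Mki67, Cdk1 and Ncapg have no row under those names. They were followed in mouse blood-forming cells in 3 ways: the share of single cells in which each gene was detected, the number of them detected per cell, and their level in 18 bulk populations.

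Division is driven by cyclin-dependent kinase 1 with its A and B cyclins, which the Cdc25 phosphatases activate. Aurora and Polo kinases then build the spindle, condensin and topoisomerase II fold the chromosomes, kinetochores tie the chromosomes to microtubules, and the spindle checkpoint holds the anaphase-promoting complex back until every chromosome is attached. Most of these transcripts are made late in the cell cycle and removed after division, so that non-dividing cells hold little of them. Haematopoietic stem cells (HSC) in adult marrow are known to divide rarely, and the multipotent progenitors below them more often.

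The samples came from the bone marrow of C57BL6 mice aged 6 to 8 weeks. Single HSC had been sorted as CD48-CD150+CD135-CD34-, and single MPP1, the first multipotent precursors, by the same markers but CD34+. HSC filled 3 plates, MPP1 filled 2, and HSC and MPP1 from bled mice filled 1 plate each; how and when the mice were bled is not given in the sources used here. The growth notes of the bled plates and of HSC plate 3 name normal and bled mice together. HSC plate 3 also differed in its making: the labels name Fluidigm capture, Nextera XT libraries and added spike-in RNA, where the other plates name Smart-seq and TruSeq. The deposited single-cell tables are 3: normal HSC and MPP1 of replicates 1 and 2, both bled sorts, and HSC plate 3. Table and bleeding therefore cannot be told apart. The columns of HSC plate 1 could hold either of its runs, since a repeat run of 96 samples has the same wells and cell numbers. The bulk libraries were made from 1000 sorted cells each, with 1 library per population and a protocol the labels call PMA-RNA-seq. The bulk HSC label reads CD34+, which is the gate of MPP1 and differs from the CD34- of the single HSC.

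Every well's label states how many cells it held. Of 672 wells, 460 held 1 cell, and the 373 of these with at least 1000 genes at FPKM 1 or more (fragments scaled to transcript length and library total; the threshold for "detected") were used. HSC plates 1 to 3 gave 50, 53 and 73 of these cells, MPP1 plates gave 51 and 48, bled HSC gave 48 and bled MPP1 gave 50. Medians of detected genes per cell lay between 1969 (HSC plate 3) and 3046.5 (bled MPP1). Another 150 wells were labelled as holding no cell, and 20 of them still had 1000 genes or more. Cd34, the gene that separates the sort gates, was detected in 34%, 56.6% and 42.5% of cells on the HSC plates and 20.8% of bled HSC, against 70.6%, 70.8% and 66% on the MPP1 plates, normal and bled. Kit was found in 72.9% to 96.1% of cells on every plate, and Cd48 in at most 8%. Read depth is unknown, and the exact binomial (Clopper-Pearson) intervals at 95% given for shares cover counting error only.

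The promoters show what these genes share in sequence. In many vertebrate mitosis genes a CCAAT box, bound by the factor NF-Y, stands near a cell cycle genes homology region (CHR, with the letters TTTGAA or TTCGAA), which binds the DREAM and MuvB complexes, while replication genes more often carry E2F sites. RefSeq's promoter table (GRCm38.p6) held 37 of the 44 genes, and the 250 bases before the start were searched on both strands. Of the 32851 promoters in the table, the first listed for each gene name was taken, which left 27025. CCAAT stood in 30 of the 37 promoters (81.1%), against 34.5% of these 27025 and 55.6% of 36 promoters of S-phase genes. At least 1 CHR stood in 16 (43.2%), against 17.4% of all promoters and 16.7% of the S-phase promoters. Both together stood in 40.5% of the members' promoters, 6.21% of all and 13.9% of the S-phase set. E2F-type letters (TTTGGCGC, TTTCCCGC or TTTCGCGC) stood in 2 members' promoters, those of Cdk1 and Ncapd2, which is 5.41%, against 22.2% of the S-phase promoters and 1.59% of all. Each motif was counted on its own, also where its letters overlap another, and a match is a description of the letters, not a site in use. The 150 bases before the start are shown for 6 genes that span how the members were detected below. Plk1 was found in few cells, and 20 of its 21 cells held 10 or more other members. Cdc20 was under FPKM 1 in every empty well. Top2a and Mki67 are the usual proliferation markers, and Bub3 and Smc2 were found in many cells. CCAAT and CHR letters on either strand are in capitals, so that ATTGG and TTCAAA are the same boxes read from the other strand.

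Plk1: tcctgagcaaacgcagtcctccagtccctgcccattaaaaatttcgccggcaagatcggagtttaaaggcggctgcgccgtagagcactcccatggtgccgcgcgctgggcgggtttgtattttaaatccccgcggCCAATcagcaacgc
Cdc20: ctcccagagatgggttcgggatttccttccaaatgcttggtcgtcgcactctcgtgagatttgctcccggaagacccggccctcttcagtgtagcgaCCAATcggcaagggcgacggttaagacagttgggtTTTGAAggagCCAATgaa
Top2a: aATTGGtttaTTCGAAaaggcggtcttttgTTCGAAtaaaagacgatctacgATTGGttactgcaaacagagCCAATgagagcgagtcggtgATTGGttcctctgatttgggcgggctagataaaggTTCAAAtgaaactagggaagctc
Mki67: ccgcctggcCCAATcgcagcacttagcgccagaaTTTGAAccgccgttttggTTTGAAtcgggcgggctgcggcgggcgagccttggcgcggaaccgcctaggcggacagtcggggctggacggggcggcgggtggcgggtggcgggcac
Bub3: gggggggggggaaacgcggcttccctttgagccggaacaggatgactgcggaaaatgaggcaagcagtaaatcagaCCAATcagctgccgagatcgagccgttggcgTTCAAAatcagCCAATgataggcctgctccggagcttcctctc
Smc2: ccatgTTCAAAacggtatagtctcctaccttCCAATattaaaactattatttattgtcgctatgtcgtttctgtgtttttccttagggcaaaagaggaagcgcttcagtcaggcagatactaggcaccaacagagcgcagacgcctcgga

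The Top2a stretch holds 4 CCAAT boxes and 3 CHR matches, the most of the 6. Plk1 has 1 CCAAT box and no CHR in this window, and Mki67 has 1 and 2. Bub3 and Smc2, which were detected far more widely, have the same kinds of box as Cdc20: each holds at least 1 CCAAT and 1 CHR. The Plk1 stretch lies at chr7:122159285-122159434 (plus strand), that of Cdc20 at chr4:118437344-118437493 (minus), of Top2a at chr11:99024190-99024339 (minus), of Mki67 at chr7:135716380-135716529 (minus), of Bub3 at chr7:131560220-131560369 (plus) and of Smc2 at chr4:52439071-52439220 (plus), all on GRCm38.p6. The deposited values use mm9, and no coordinates were converted between the builds.

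The genes fell into a few that were detected widely and many that were detected in a small share of cells. Smc4 and Smc2, the ATPase arms of condensin, were found in 54.1% and 43.8% of cells (mean of 7 plates), and Bub3, a checkpoint protein that also acts outside mitosis in splicing, in 50.4%. Top2a, the topoisomerase that untangles sister chromatids, followed at 30.5%, and Mki67, the surfactant-like coat protein of mitotic chromosomes, at 27.0%. The other 39 genes averaged between 3.11% (Espl1, the protease separase) and 23.7% (Mad2l1, the checkpoint protein that inhibits Cdc20). All 44 were detected somewhere, and 11 of them stayed under FPKM 1 in every cell of at least 1 plate.

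By role, the chromosome structure genes were the most widely detected, with a median gene at 28.8% of cells (mean of 7 plates) and a range from 12.9% (Ncapg, a condensin subunit) to 54.1%. The 5 centromere and kinetochore genes lay close together, from 9.18% (Nuf2) to 15.2% (Cenpe, the kinetochore motor). The 4 genes of the chromosomal passenger complex ran from 9.05% (Aurkb, its kinase) to 19.7% (Cdca8, the subunit borealin). Entry kinases and cyclins were the most sparsely detected group by their median, 8.68%, and ran from 5.64% (Cdc25c) to 19.6% (Cdk1). In the spindle motors and assembly genes the range was 5.32% (Kif2c, a microtubule depolymerase) to 16.8% (Tpx2, the activator of Aurora A). The central spindle and cytokinesis genes ran from 6.76% (Anln, the ring protein anillin) to 19.0% (Kif23). The 8 checkpoint and anaphase genes had the widest range, 3.11% to 50.4%.

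**Figure D1:**
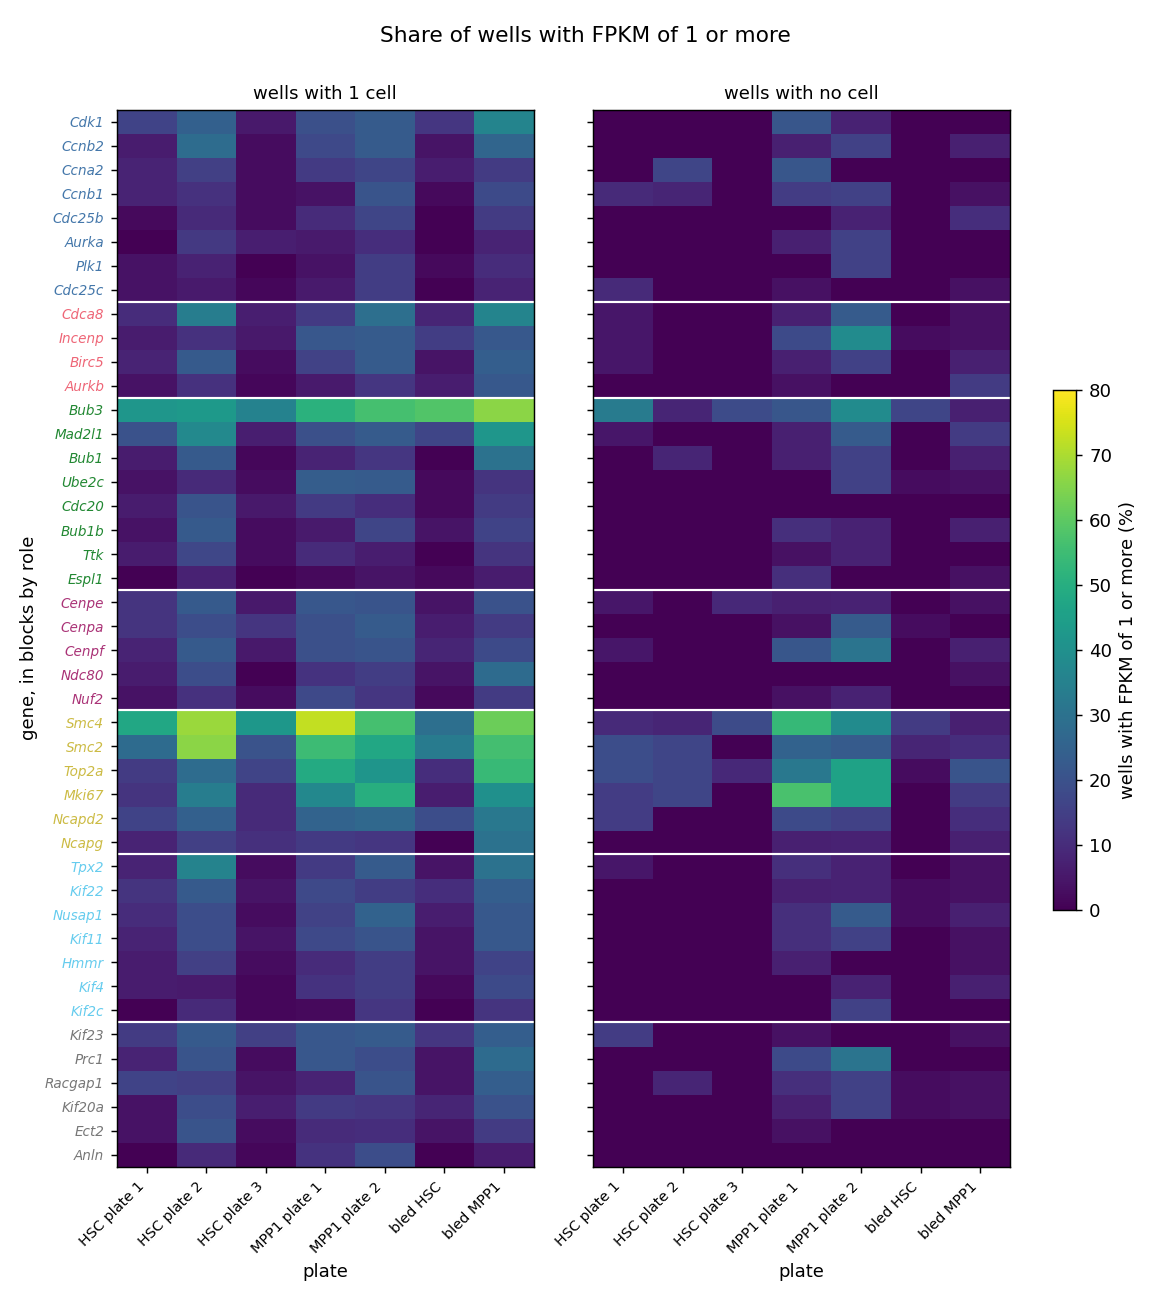
Share of wells (%, colour) in which each of the 44 genes (rows, in blocks by role) reached FPKM 1, by plate (columns), for wells with 1 cell on the left and with no cell on the right. Smc4, Bub3, Smc2, Top2a and Mki67 stand out in the cells, and Mki67 and Top2a also show in the empty wells of the MPP1 plates.

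Plates of the same sort differed. Mki67 was detected in 12%, 34.0% and 9.59% of cells on HSC plates 1 to 3, in 37.3% and 50% of MPP1, in 6.25% of bled HSC and in 40% of bled MPP1. Every MPP1 plate, bled included, lay above every HSC plate, with a narrow gap between HSC plate 2 and MPP1 plate 1. Top2a ran 14%, 28.3%, 16.4%, 49.0%, 41.7%, 10.4% and 54% in the same order, again with the MPP1 plates above all HSC plates. Smc4 did not separate the sorts: it was found in 48%, 67.9% and 42.5% of cells on the HSC plates, 72.5% and 56.2% on the MPP1 plates, 29.2% in bled HSC and 62% in bled MPP1. Bub3 was the most even of the widely detected genes, at 42%, 43.4%, 35.6%, 51.0%, 56.2%, 58.3% and 66% in that order. Smc2 was found in 28%, 66.0%, 20.5%, 54.9%, 47.9%, 33.3% and 56%, so that HSC plate 2 stood above all MPP1 plates. Cdc20, the activator of the anaphase-promoting complex, was at 6%, 20.8%, 5.48%, 13.7%, 10.4%, 2.08% and 14%. Plk1, the Polo kinase that acts from entry to cytokinesis, was found in 4%, 7.55% and 0% of HSC, in 3.92% and 14.6% of MPP1, and in 2.08% and 10% of bled HSC and MPP1. On HSC plate 3 it was at or above FPKM 1 in 0 of 73 cells, which allows a share of up to 4.11%.

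The wells labelled as empty were not free of these transcripts. Mki67 was detected in 14.3%, 16.7% and 0% of the no-cell wells of the HSC plates, in 57.1% and 46.2% of those of the MPP1 plates, and in 0% and 13.8% of the bled ones. On HSC plate 1 and on MPP1 plate 1 the share in empty wells was thus above the share in cells. Top2a gave 19.0%, 16.7%, 9.09%, 32.1%, 46.2%, 2.78% and 20.7% of no-cell wells, above its share in cells on HSC plate 1 and MPP1 plate 2. The share of cells with Mki67 on the normal MPP1 plates is therefore not separated from the signal of their empty wells. Cdc20 and Anln were under FPKM 1 in all 150 no-cell wells, which allows a share of up to 2.00%, and were detected in 38 and 24 of the 373 cells. In all, 17 of the 44 genes were found in a larger share of cells than of no-cell wells on all 7 plates.

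Most cells held few of these genes and a small number held many. The mean number detected per cell was 4.28, 9.40 and 2.86 on HSC plates 1 to 3, 7.88 and 9.35 on the MPP1 plates, 3.33 in bled HSC and 10.6 in bled MPP1. The medians were lower, at 2, 4 and 2, then 5 and 4, then 2 and 6. Of the 373 cells, 26 held none, 147 held 2 or fewer, 64 held 10 or more, 35 held 20 or more and 22 held 30 or more. The highest count on a plate ran from 22 (bled HSC) to 44, all of the genes, in 1 cell of MPP1 plate 2. The share of cells with 10 or more was 10% (interval 3.33% to 21.8%), 28.3% (16.8% to 42.3%) and 2.74% (0.33% to 9.55%) on the HSC plates. MPP1 plates 1 and 2 had 17.6% (8.40% to 30.9%) and 22.9% (12.0% to 37.3%), bled HSC had 6.25% (1.31% to 17.2%) and bled MPP1 had 38% (24.7% to 52.8%). HSC plate 2 thus stood among the MPP1 plates, and its interval did not overlap that of HSC plate 3. Of the no-cell wells, 10.7% (3 of 28) and 23.1% (3 of 13) held 10 or more on MPP1 plates 1 and 2. On the other plates 0% of them did. The share of cells on MPP1 plate 2 was therefore not above that of its empty wells.

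No-cell wells held on average 1.76, 1.08 and 0.55 of the 44 genes on the HSC plates. Those of the MPP1 plates held 4.89 and 6.46, and those of bled HSC and MPP1 held 0.61 and 2.14. Cells held more than the empty wells of their own plate on all 7 plates, by 4.32 ± 2.80 genes (mean and SD over 7 plates). The cells had passed the filter of 1000 genes, and the empty wells were not filtered. On the normal MPP1 plates, empty wells with 1000 genes or more held 8.33 (6 wells) and 11.75 (4 wells). The cells there held fewer, 7.88 and 9.35. On HSC plate 1 and bled MPP1 such wells held 2 (7 wells) and 4 (3 wells), under the 4.28 and 10.6 of cells. The remaining plates had no such wells. The 2 normal MPP1 plates had the fullest empty wells, with up to 14 and 23 of the genes in 1 well. Above the empty wells, the plates differed by 2.52, 8.31 and 2.32 genes in HSC, 2.99 and 2.89 in MPP1, and 2.72 and 8.50 in bled HSC and MPP1.

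**Figure D2:**
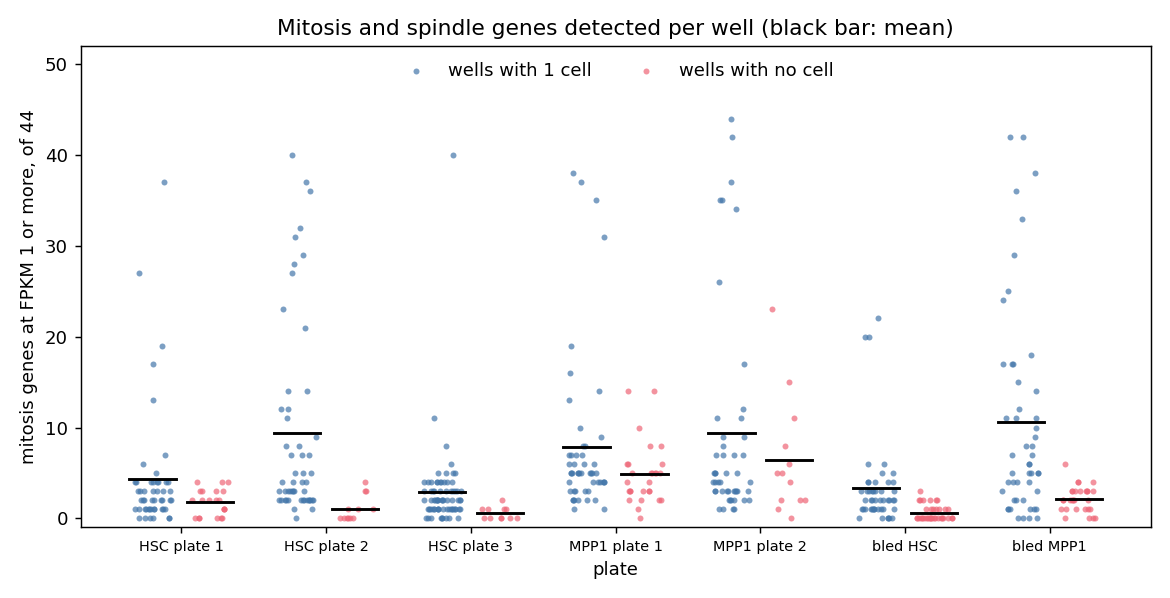
Number of the 44 genes at FPKM 1 or more (y axis) in each well with 1 cell (blue points) and with no cell (red points), by plate (x axis), with the mean as a black bar. Between 1 and 10 cells per plate reach 20 or more, and 1 cell of MPP1 plate 2 holds all 44.

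The cells with 10 or more of the genes held a large part of all detections. On HSC plates 1 and 2, 5 and 15 such cells held 52.8% and 73.7% of the plate's detections of these genes; on HSC plate 3, 2 cells held 24.4%. On the MPP1 plates 9 and 11 cells held 53.0% and 67.7%, and 3 bled HSC and 19 bled MPP1 held 38.8% and 79.3%. These cells were chosen by the count itself, so their other genes are given as a description. They also had more detected genes in all. The median number of detected genes was 3105 against 2120 in the remaining cells of HSC plate 1. It was 3323 against 2554 on HSC plate 2 and 2287.5 against 1969 on HSC plate 3. On the MPP1 plates it was 3468 against 2528.5 and 3603 against 2393. In bled HSC and MPP1 it was 3533 against 2389 and 3880 against 2608. The part of the number of detected genes in these counts was not tested.

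What else those cells held was uneven across the other lists. Of 45 S-phase genes, which copy DNA before division, they had 23.8 against 6.31 on HSC plate 1, 20.8 against 10.7 on plate 2, 10.0 against 5.70 on plate 3, 23.9 against 11.5 and 20.6 against 11.4 on the MPP1 plates, 37.0 against 7.71 in bled HSC and 31.0 against 14.1 in bled MPP1. Of 58 further mitosis genes outside the set they had 27.2 against 4.00, 25.5 against 5.05 and 21.0 against 3.01 on HSC plates 1 to 3. On the MPP1 plates they had 25.7 against 5.31 and 28.5 against 5.78. In bled HSC and MPP1 they had 29.7 against 4.22 and 26.8 against 6.35. Of 10 housekeeping genes they had 8.80 against 8.22, 9.07 against 8.55 and 8.00 against 7.87 on HSC plates 1 to 3. On the MPP1 plates they had 8.78 against 8.33 and 9.00 against 8.65. In bled HSC and MPP1 they had 9.33 against 8.62 and 9.21 against 8.87. Most of these 10 were detected in both groups of cells, which leaves this list little room to differ. Of 11 brakes on the cycle, such as the CDK inhibitors, they had 3.60 against 2.89 on HSC plate 1, 3.87 against 2.84 on plate 2, 2.50 against 2.61 on plate 3, 4.33 against 3.43 and 4.45 against 3.62 on the MPP1 plates, and 4.33 against 3.47 and 4.00 against 2.77 in bled HSC and MPP1. Of 10 stem cell markers they had 5.00 against 6.16, 6.67 against 6.16 and 4.00 against 5.37 on HSC plates 1 to 3. On the MPP1 plates they had 4.89 against 4.83 and 5.09 against 5.08. In bled HSC and MPP1 they had 5.33 against 6.04 and 5.63 against 5.42.

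Within these cells the most widely detected genes came first again, and others were rarely found outside them. The count that chose the cells includes each of these genes, so part of each contrast given here follows from that choice. Over the 5 plates with at least 5 such cells, Smc2 was present in 96.8% of them (mean of plates), Top2a in 90.6%, Smc4 in 83.5% and Mki67 in 75.9%. Birc5, the survivin subunit of the passenger complex, was in 72.3% of them against 3.27% of the remaining cells, and Kif11, the motor that pushes the spindle poles apart, in 67.5% against 3.04%. Aurkb was in 43.3% against 0.54%, and Plk1 in 35.8% against 0%. Smc4 and Bub3 were also common in the remaining cells, at 53.6% and 43.9%. Espl1 was the least often seen in these cells, at 14.3%.

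The company each gene kept ordered them along a continuous range. For every gene, the cells that detected it were asked for the other 43. Plk1 and Espl1 were at 1 end: on the plates with at least 2 detecting cells, all of their cells (100%) held 10 or more of the others. Aurkb followed at 97.2% and Bub1b, the checkpoint kinase BubR1, at 95.2%. Bub3, Smc4 and Smc2 were at the other end, at 25.6%, 26.2% and 33.4%, with Mki67 and Top2a between, at 56.4% and 52.4%. Cells with Plk1 held 33.1 other genes on average and the cells without it 6.09, while cells with Bub3 held 8.65 and those without it 3.47. For 41 of the 44 genes the detecting cells held more of the others on every plate where the comparison could be made. Breadth and company come from the same cells, so they are not independent measures.

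**Figure D3:**
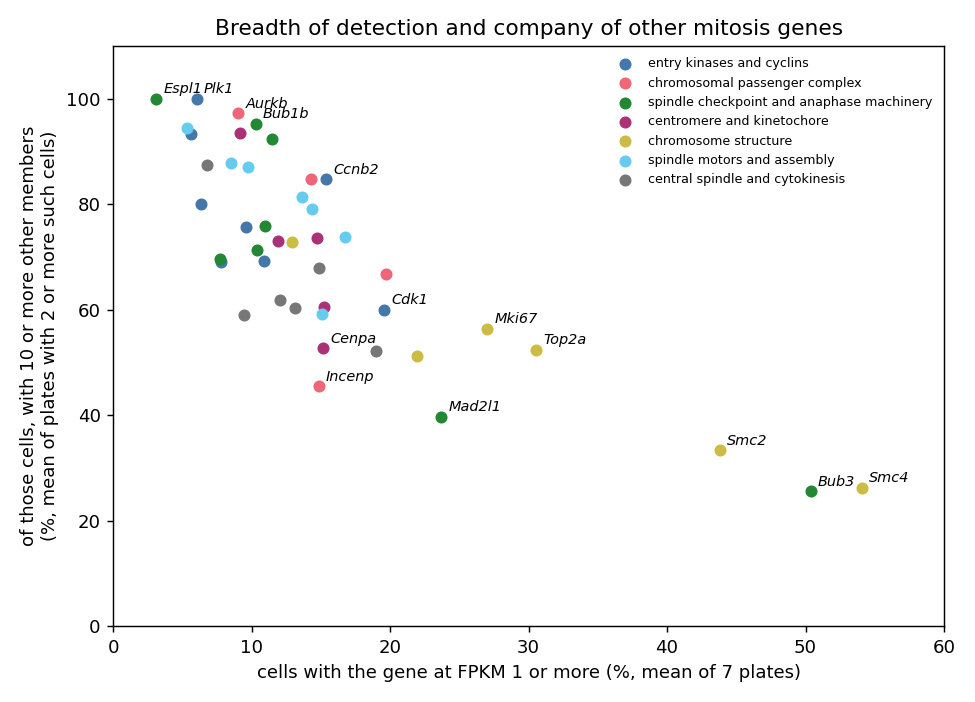
Share of cells with each gene (x axis, %, mean of 7 plates) against the share of those cells that held 10 or more of the other 43 genes (y axis, %, mean of the plates with 2 or more such cells), coloured by role. Bub3, Smc4 and Smc2 lie at the lower right, Plk1 and Espl1 at the upper left at 100%.

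Mki67 and Top2a, the genes most often used to mark proliferating cells, were compared as markers. Cells with Mki67 held 13.8 of the other 43 genes against 2.84 in the remaining cells on HSC plate 1, 19.6 against 3.63 on plate 2 and 9.43 against 2.06 on plate 3. On the MPP1 plates the values were 11.6 against 5.06 and 14.5 against 3.21, and in bled HSC and MPP1 19.7 against 2.18 and 17.9 against 5.13. The difference was above 0 on all 7 plates and averaged 11.8 ± 4.06 genes (SD, n = 7 plates). Cells with Mki67 also had more detected genes in all on most plates. The medians were 2837 against 2074.5, 3103 against 2507 and 2072 against 1969 on HSC plates 1 to 3. They were 2646 against 2483 on MPP1 plate 1, 3533 against 2389 in bled HSC and 3676 against 2721 in bled MPP1. On MPP1 plate 2 the 24 cells with and 24 without Mki67 had medians of 2520.5 and 2522.5 detected genes. The cells of that plate with 20 or more of the genes were rich in genes, at 3486 to 4076, and the part of the number of detected genes in the difference was not tested. The median cell with Mki67 held 9.5, 21 and 4 of the others on HSC plates 1 to 3, 5 and 6.5 on the MPP1 plates, 19 in bled HSC and 15 in bled MPP1, so the plates of 1 sort differed widely. Cells with Mki67 and under 3 of the others were 2 of 6, 1 of 18 and 2 of 7 on the HSC plates, 2 of 19 and 2 of 24 on the MPP1 plates, 0 of 3 in bled HSC and 2 of 20 in bled MPP1. Cells with Top2a held 16.7 others against 2.09 on HSC plate 1, 19.7 against 4.95 on plate 2, 6.17 against 2.02 on plate 3, 10.9 against 4.00 and 16.9 against 3.29 on the MPP1 plates, and 12.6 against 2.14 and 15.4 against 3.83 in bled HSC and MPP1. On HSC plate 3, 5 of 12 cells with Top2a held under 3 others.

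The genes also varied together from cell to cell. The median Spearman correlation between pairs of them, over the cells of a plate and the genes detected in at least 5 of its cells, was 0.31, 0.44 and 0.12 on HSC plates 1 to 3, 0.34 and 0.52 on the MPP1 plates, and 0.16 and 0.44 in bled HSC and MPP1. These rest on 45 to 861 pairs of genes and 48 to 73 cells, which share their plate and their depth. Against housekeeping genes the median lay between -0.02 and 0.14, and against S-phase genes between 0.04 and 0.23. Against the further mitosis genes it was lower than among the members on every plate. It was 0.22, 0.35 and 0.05 on the HSC plates, 0.29 and 0.43 on the MPP1 plates, and 0.14 and 0.36 in the bled ones. On bled HSC the correlation with S-phase genes (0.23) was above that among the genes themselves (0.16); only 10 of them were detected in 5 cells there. The number of these genes per cell also ran with the number of all genes detected, with a rho of 0.33 (MPP1 plate 1) to 0.79 (bled MPP1). Cdk1 had the highest mean correlation with the others on HSC plate 1 and on bled HSC, Bub1b on HSC plate 2, Prc1 (the bundler of the central spindle) on MPP1 plate 2 and Hmmr (a spindle-binding protein) in bled MPP1. Bub3 had the lowest on HSC plate 1 and MPP1 plate 2, at 0.07 and 0.26.

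Levels were then compared between groups on the mean FPKM over the cells of a plate, with the plate as the replicate and limma on log2(mean FPKM + 1), adjusted by Benjamini-Hochberg over all genes tested. This scale understates the change of low genes, and the labels do not state if a plate drew on 1 mouse or on a pool. The labels number the normal HSC and MPP1 plates as biological replicates, without saying which mice each drew on. The p-values measure only the spread between these plates.

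Against the empty wells of the same plate, most of the genes rose in cells, as did most genes of the genome. Of 42 members tested, 28 were called higher in wells with 1 cell and 0 lower (limma, adjusted p under 0.05; 29 of the 42 had an unadjusted p under 0.05, all of them higher). Of all 9391 genes tested, 71.3% were called higher and 0.0426% lower, so the members' share is near that of all genes. Their median log2 difference was 1.70, and that of all genes 1.86. Ccnb2, a B-type cyclin, averaged 21.1, 70.8 and 4.64 FPKM in the HSC plates, 23.8 and 93.1 in MPP1, and 7.98 and 57.4 in bled HSC and MPP1. In the empty wells it was listed at 0 on all HSC plates, normal and bled, at 1.16 and 76.4 on the MPP1 plates and at 0.84 on the bled MPP1 plate. The log2 difference was 3.58 ± 0.71 (SE, limma adjusted p = 7.1e-04), the highest of the members. Cdca8 followed at 2.96 ± 0.63 (limma adjusted p = 0.0011). Cdc20 was listed at 0 in the empty wells of every plate and averaged 1.70, 11.6, 1.98, 8.91, 10.8, 3.31 and 15.8 FPKM in the cells (limma adjusted p = 2.5e-04).

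The members that missed the threshold against empty wells include well-known markers. Mki67 averaged 5.15, 23.7, 1.99, 13.6, 28.8, 2.15 and 10.6 FPKM in cells and 2.54, 0.68, 0, 17.7, 17.6, 0.0022 and 3.75 in empty wells, in the same plate order. On MPP1 plate 1 the empty wells were higher. Its log2 difference was 1.36 ± 0.60 (limma adjusted p = 0.052). Top2a passed narrowly, at 1.77 ± 0.77 (limma adjusted p = 0.049). Bub3 reached 768 FPKM in the empty wells of MPP1 plate 2 and 382 in those of bled MPP1, against 49.2 and 60.0 in their cells, and its difference was 0.52 ± 0.98 (limma adjusted p = 0.63). Incenp, the scaffold of the passenger complex, and Racgap1, a subunit of the central spindle complex, gave -0.21 ± 0.64 and 0.04 ± 0.76 (limma adjusted p = 0.77 and 0.96), and Ccnb1 gave 0.41 ± 0.59 (limma adjusted p = 0.53). The sign for Incenp and for Racgap1 flipped when plates were left out or the empty wells restricted to those under 1000 genes. Related lists were called at a like rate: 43 of 54 other mitosis genes, 34 of 45 S-phase genes and 8 of 11 brakes were called higher.

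Between MPP1 and HSC none of the members passed the test. The count of members per cell was 8.62 ± 1.04 in MPP1 (SD, n = 2 plates) and 6.84 ± 3.62 in HSC plates 1 and 2, and the groups overlapped, since HSC plate 2 stood above both MPP1 plates. Without HSC plate 1 the difference turned to -0.78. The share of cells with at least 3 of the genes was 81.7% ± 3.64 in MPP1 and 57.0% ± 15.5 in HSC, with the plates at 84.3% and 79.2% against 46% and 67.9%, and did not overlap. The empty wells of MPP1 also held at least 3 in 78.6% and 61.5%, against 33.3% and 25% in those of HSC. Of 43 members tested, 29 had a higher and 14 a lower value in MPP1. Their median difference on the log2 scale was 0.40, beside -0.04 over all 9833 genes. None was called, where 0.0102% of all genes were (1 gene, limma). At an unadjusted p under 0.05 there was 1 member higher and 0 lower, where the share of all genes was 2.56% higher and 4.22% lower.

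That 1 gene was Plk1. Its plate means were 4.53 and 2.01 FPKM in HSC and 4.73 and 67.7 in MPP1, where it was detected in 7 of 48 cells of MPP1 plate 2 and 1 of these reached 2404 FPKM. The difference was 2.28 ± 1.06 (SE, limma adjusted p = 0.74), 0.49 without MPP1 plate 2 and 0.36 with the mean taken over the cells' log2 values. Nuf2, which anchors microtubules at the kinetochore, averaged 0.79 and 9.46 FPKM in HSC and 19.6 and 7.45 in MPP1, a difference of 1.61 ± 0.99 (limma adjusted p = 0.81), and the groups overlapped. Aurka, the centrosome kinase, gave 0.01 and 14.5 against 4.95 and 16.6 FPKM, a difference of 1.37 ± 1.19 (limma adjusted p = 0.86) that turned to -0.60 without HSC plate 1. At the other end Ccnb1, the main B-type cyclin, averaged 10.0 and 16.8 FPKM in HSC plates 1 and 2 and 0.84 and 9.66 in MPP1. These plates did not overlap, but HSC plate 3, outside this fit, averaged 0.047 FPKM, under both MPP1 plates. The difference in the fit was -1.66 ± 0.96 (limma adjusted p = 0.80). It shrank to -0.39 without MPP1 plate 1, to -0.41 with HSC plate 3 added and to -0.04 with the mean over the cells' log2 values. Ttk, the checkpoint kinase Mps1, gave -0.77 ± 1.01 and Kif23, a motor of the central spindle, -0.73 ± 0.72 (limma adjusted p = 0.91 and 0.89); Ttk turned to 0.26 without HSC plate 2. Mki67 averaged 5.15 and 23.7 FPKM in HSC and 13.6 and 28.8 in MPP1, with a difference of 0.76 ± 0.79 (limma adjusted p = 0.89). Top2a averaged 16.9 and 41.3 FPKM against 42.9 and 68.4, with a difference of 1.00 ± 0.59 (limma adjusted p = 0.81); both MPP1 plates stood above both HSC plates, by a narrow gap between 41.3 and 42.9.

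The other cell cycle lists also had no call between MPP1 and HSC. Of 45 S-phase genes, 29 had a higher value in MPP1, with a median of 0.23; Uhrf1, which brings maintenance methylation to new DNA, gave 1.70 ± 0.71 and the helicase subunit Mcm2 1.45 ± 0.74 (limma adjusted p = 0.70 and 0.76). Of 53 further mitosis genes 26 were higher, with a median of -0.01. Of 11 brakes 7 were higher, led by Btg2, an antiproliferative gene, at 2.58 ± 0.60 (limma adjusted p = 0.31) and Cdkn2c, a CDK inhibitor, at 2.53 ± 0.99 (limma adjusted p = 0.67). Not all marker lists of other cells separated the sorts. The 6 megakaryocyte markers summed to 71.5 and 73.0 FPKM in HSC plates 1 and 2 and to 255 and 193 in MPP1. Of the 6, 3 were detected on each of these HSC plates and 5 and 6 on the MPP1 plates. On HSC plate 3, outside this fit, they summed to 73.5 FPKM and all 6 were detected. Ppbp was listed at 0 in every cell of HSC plates 1 and 2, and Gp1bb in every cell of HSC plate 2 and MPP1 plate 1. The 8 erythroid markers found in the table summed to 77.8 and 69.9 FPKM in HSC and 108 and 60.1 in MPP1, with Car1, a carbonic anhydrase of erythroid cells, at 0 in every cell of all 7 plates. Their part in the values of the mitosis genes was not tested.

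In bled mice the count per cell was lower than the normal mean in HSC and higher in MPP1. Bled HSC held 3.33 members per cell, against 4.28, 9.40 and 2.86 on the normal HSC plates, which is 2.18 fewer than their mean; HSC plate 3 stood below it and the other plates above. The lower mean rests on HSC plate 2: without that plate the difference was -0.24. Above its own empty wells, bled HSC (2.72) stood over HSC plates 1 and 3 (2.52 and 2.32). Bled MPP1 held 10.6, above both normal MPP1 plates (7.88 and 9.35) and 2.02 more than their mean. The difference between these differences, MPP1 minus HSC, was 4.20 genes per cell, and 2.26 without HSC plate 2; no p is given for this count. The median number of detected genes was 2443 in bled HSC, between those of the normal HSC plates (2157.5, 2594 and 1969), and 3046.5 in bled MPP1, above those of the normal MPP1 plates (2535 and 2520.5).

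The levels were then fitted over both cell types, with 1 plate per bled sort. Bled plates gave lower values for 35 of 43 members and higher values for 8, with a median log2 difference of -0.70, beside 0.01 over all 10017 genes. This direction rests on bled HSC: the median was 0.26 without that plate and -1.51 without bled MPP1. None was called by limma, and of all genes 0% were. At an unadjusted p under 0.05, 4 members were lower and 0 higher, where the share of all genes was 2.46% lower and 3.39% higher. The 4 were Cdc25c, which activates Cdk1 (-2.0 ± 0.88), Ube2c, the ubiquitin carrier of the anaphase-promoting complex (-1.86 ± 0.75), Prc1 (-1.75 ± 0.80) and Smc4 (-1.09 ± 0.48), with limma adjusted p of 0.83, 0.81, 0.84 and 0.83. Cdc25c was listed at 0 in every cell of bled HSC and averaged 6.25 FPKM in bled MPP1, against 10.3 and 10.7 in HSC and 3.86 and 19.7 in MPP1. Among the plates fitted, which leave out HSC plate 3, Prc1 and Ube2c were low in bled HSC alone. Prc1 averaged 0.08 FPKM there and 16.4 in bled MPP1, against 12.1 and 11.4 in HSC and 12.9 and 18.8 in MPP1. Without the bled HSC plate its difference was 0.064. Prc1 was detected in 4.17% of bled HSC and had its lowest share, 2.74%, on HSC plate 3. With HSC plate 3 added the differences of Prc1 and Ube2c were -1.445 and -1.42. Ube2c averaged 0.15 in bled HSC and 29.9 in bled MPP1, against 10.9 and 15.6 in HSC and 23.9 and 43.7 in MPP1. Smc4 was low in both bled plates, at 23.9 and 16.1 FPKM, against 28.7 and 44.5 in HSC and 58.5 and 44.7 in MPP1, and the groups did not overlap. The 3 highest members were Aurkb at 0.83 ± 1.09, Kif4, a chromosome-bound motor, at 0.65 ± 0.79 and Incenp at 0.65 ± 0.81 (limma adjusted p = 0.95 each). Aurkb averaged 55.7 FPKM in bled MPP1, where its highest cell reached 1122, and without that plate its difference was -1.70 and that of Kif4 -0.091. Mki67 and Top2a gave -1.41 ± 0.72 and -0.94 ± 0.58 (limma adjusted p = 0.87 and 0.88).

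The test of the difference between the cell types (the interaction) called none of the 43 members and 0% of all genes (limma). Its spread comes from the normal plates alone, and each bled plate is assumed to vary like them. In 37 members the bled difference was more positive in MPP1 than in HSC and in 6 it was not; the median was 1.65, and 0.13 for the whole of the genes tested. With an unadjusted p under 0.05, 6 were higher and 0 lower, where the share of all genes was 3.17% higher and 1.93% lower. The 6 were Aurkb (5.05 ± 1.91), Ccnb1 (4.82 ± 1.80), Bub1, the kinase that seeds the checkpoint (4.68 ± 1.55), Cdca8 (3.99 ± 1.18), Prc1 (3.63 ± 1.17) and Ube2c (3.51 ± 1.11), all with a limma adjusted p of 0.95. Bub1 averaged 4.08 and 13.4 FPKM in HSC and 0.00066 in bled HSC, and 3.49 and 7.77 in MPP1 and 17.8 in bled MPP1. Ccnb1 averaged 0.29 in bled HSC and 10.5 in bled MPP1. The lowest values were those of Plk1 (-1.89 ± 2.14), Smc4 (-1.05 ± 0.86) and Nuf2 (-0.83 ± 1.83), with limma adjusted p of 0.98, 0.97 and 0.99; all 3 changed sign when the mean was taken over the cells' log2 values.

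Other cell cycle genes also had no call in these fits, and their signs differed by list. In the interaction 41 of 54 further mitosis genes and 36 of 45 S-phase genes had a value above 0, with medians of 1.16 and 1.26, and 4 of 11 brakes did, with a median of -0.42. In the bled difference the S-phase genes had 33 of 45 above 0, with a median of 0.30, where the mitosis genes had 8 of 43 and the further mitosis genes 18 of 54. The brake Cdkn1a, which encodes the CDK inhibitor p21, gave 2.69 ± 0.88 in bled plates (limma adjusted p = 0.80), and Cdca3, a mitotic entry factor, -2.65 ± 0.76 (limma adjusted p = 0.74). Rpa1, which coats single-stranded DNA, gave -1.95 ± 0.72 (limma adjusted p = 0.80) and 3.64 ± 1.04 in the interaction (limma adjusted p = 0.95).

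**Figure D4:**
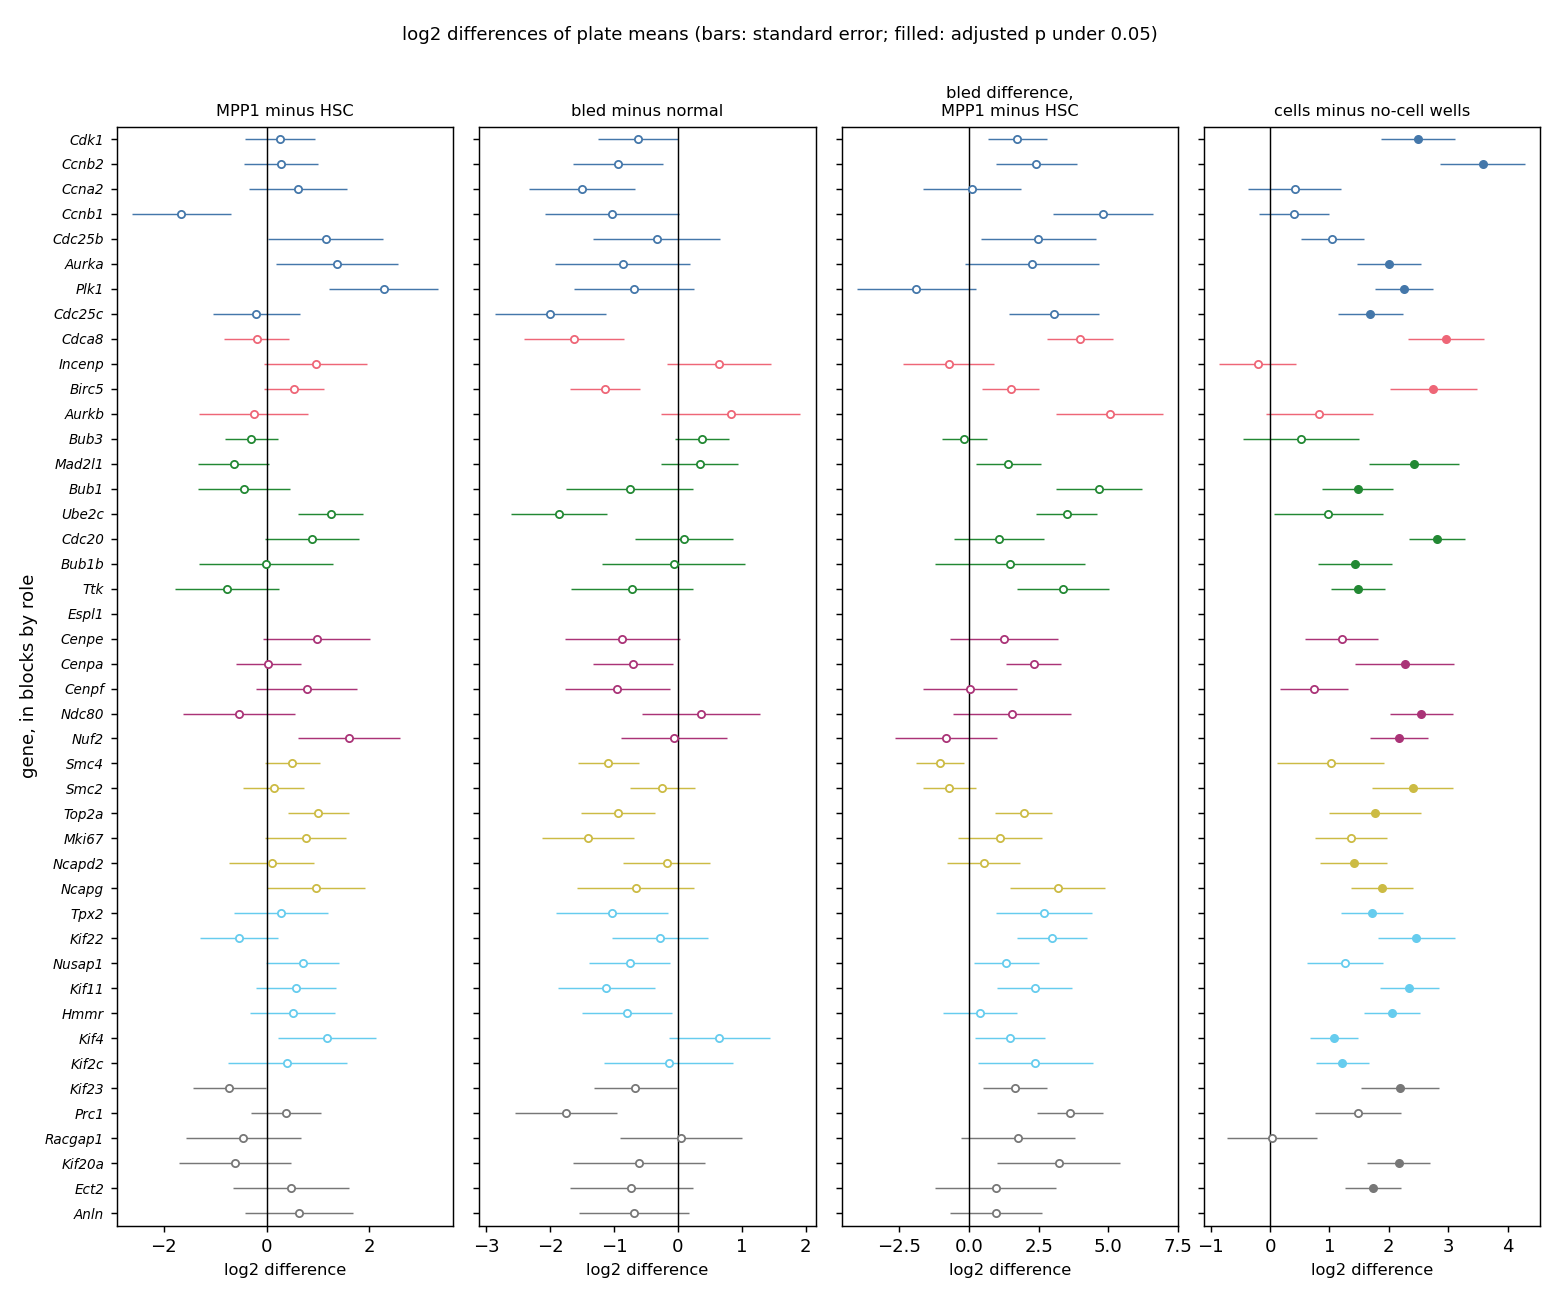
log2 difference (x axis, with standard error) of each gene (rows, in blocks by role) in the 4 limma fits; filled points have an adjusted p under 0.05. Filled points appear only in the right panel, cells minus no-cell wells, where 28 of 42 members passed.

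In the bulk populations the genes were low in HSC, CLP Sca1 high and Mature Meg and highest in pro-erythrocytes. By the mean of log2 values HSC was lowest, and by the median Mature Meg (0.08) and CLP Sca1 high (0.12) lay below HSC (0.27). With 1 library per population there is no test, neighbours in the order cannot be told apart, and fewer cycling cells and less RNA per cell cannot be told apart either. By the mean log2(FPKM + 1) over 41 genes the order rose from HSC (0.66), CLP Sca1 high (0.73), Mature Meg (0.77) and preMegE (1.28) to MPP1 (1.72), MPP3 (2.29), MPP2 (2.40), CLP (2.43), MEP (2.57), preGM (2.59), MKP (2.62) and MPP4 (2.69). CFU-E (2.87), GMP-11 (2.95), CMP (3.06), GMP-7 (3.23), PreCFU-E (3.38) and ProEry (3.96) stood highest. The number of the 41 at FPKM 1 or more ran from 7 in Mature Meg and 8 in HSC to 25 in MPP1 and 36 in ProEry. The order follows the number of genes a library detected, 1642 in Mature Meg to 6080 in GMP-7 (Pearson r = 0.82 over 18 populations), and the mean of the S-phase genes (r = 0.96); both share the library and its depth. ProEry detected fewer genes (4903) than GMP-7 and still held more of the mitosis genes.

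Set against the bulk HSC library, 36 members with a mean of FPKM 1 or more were counted at 2-fold, beside the share of all 6824 such genes. In MPP1 17 were higher and 2 lower (24.8% and 17.1% of all genes), and in MPP3 21 and 2 (32% and 17.4%). In GMP-7 31 were higher and 0 lower (57.9% and 10.3%), and in CFU-E 20 and 0 (43.7% and 15.6%). In Mature Meg 4 were higher and 3 lower (13.1% and 28.4%). The medians were 0.84, 1.77, 2.62, 1.63 and -0.12 on the log2 scale, beside 0.08, 0.14, 1.41, 0.59 and -0.17 over all genes. These 5 comparisons share the HSC library.

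Some members stood higher in HSC than in MPP1. Cdc25c had its highest value of the 18 populations in HSC, at 1.82 FPKM, with 0.59 in MPP1 and 0.61 in ProEry; its mean over the populations was under FPKM 1. Kif20a, a motor of the central spindle, stood at 35.1 FPKM in HSC and 7.06 in MPP1, with its highest values in GMP-7 (188) and ProEry (149). Top2a stood at 21.7 FPKM in HSC, 6.87 in MPP1 and 43.7 in ProEry. Kif20a and Top2a were the 2 members counted at least 2-fold lower in MPP1 than in HSC. Plk1 was among the most variable: 0.22 FPKM in HSC, 5.68 in MPP1, 11.2 in MPP2, 1022 in MPP3, 860 in MEP, 708 in MKP, 475 in ProEry and 0.84 in Mature Meg. Bub1 was at 884 FPKM in MPP3 and at most 22.6 in any other population. Ncapd2, a condensin subunit, was at FPKM 1 or more in all 18 populations and reached 1797 in Mature Meg, the library in which most other members were near 0; preGM (939) came next.

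The other leading genes by role were highest in different populations. Bub3 led the checkpoint genes and was highest in MPP4 (241 FPKM), MPP3 (169) and GMP-7 (148), with 0.93 in HSC. Tpx2 led the spindle genes, with 235 FPKM in CFU-E, 109 in MPP2, 71.6 in MKP, 71.1 in MPP1 and 0.69 in HSC. Incenp led the passenger complex, with 158 FPKM in preGM, 89.8 in CFU-E, 85.1 in MEP and 0.13 in HSC. Nuf2 led the kinetochore genes, with 23.5 FPKM in MEP, 22.3 in GMP-11, 17.1 in MKP and 0.24 in HSC. Kif23 and Anln were highest in ProEry, at 267 and 261 FPKM, where the next populations had 12.2 (CLP Sca1 high) and 86.4 (PreCFU-E). The order of the genes by bulk level differed from that by share of single cells, which is another measure from another library protocol. Smc4 and Smc2, widely detected in single cells, had at most 4.12 and 16.6 FPKM in any bulk population. Bub1, Ttk, Tpx2 and Kif20a also carry other RefSeq transcripts in bulk than in the single cells. Birc5 was under FPKM 1 in all 18, and Cenpe and Cenpf reached it in 1 population each. The bulk table has no Cdk1 row, but a row named Cdc2a carries the same RefSeq transcript; it was at 0.15 FPKM in HSC, 1.15 in MPP1, 16.3 in ProEry and 0.03 in Mature Meg.

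**Figure D5:**
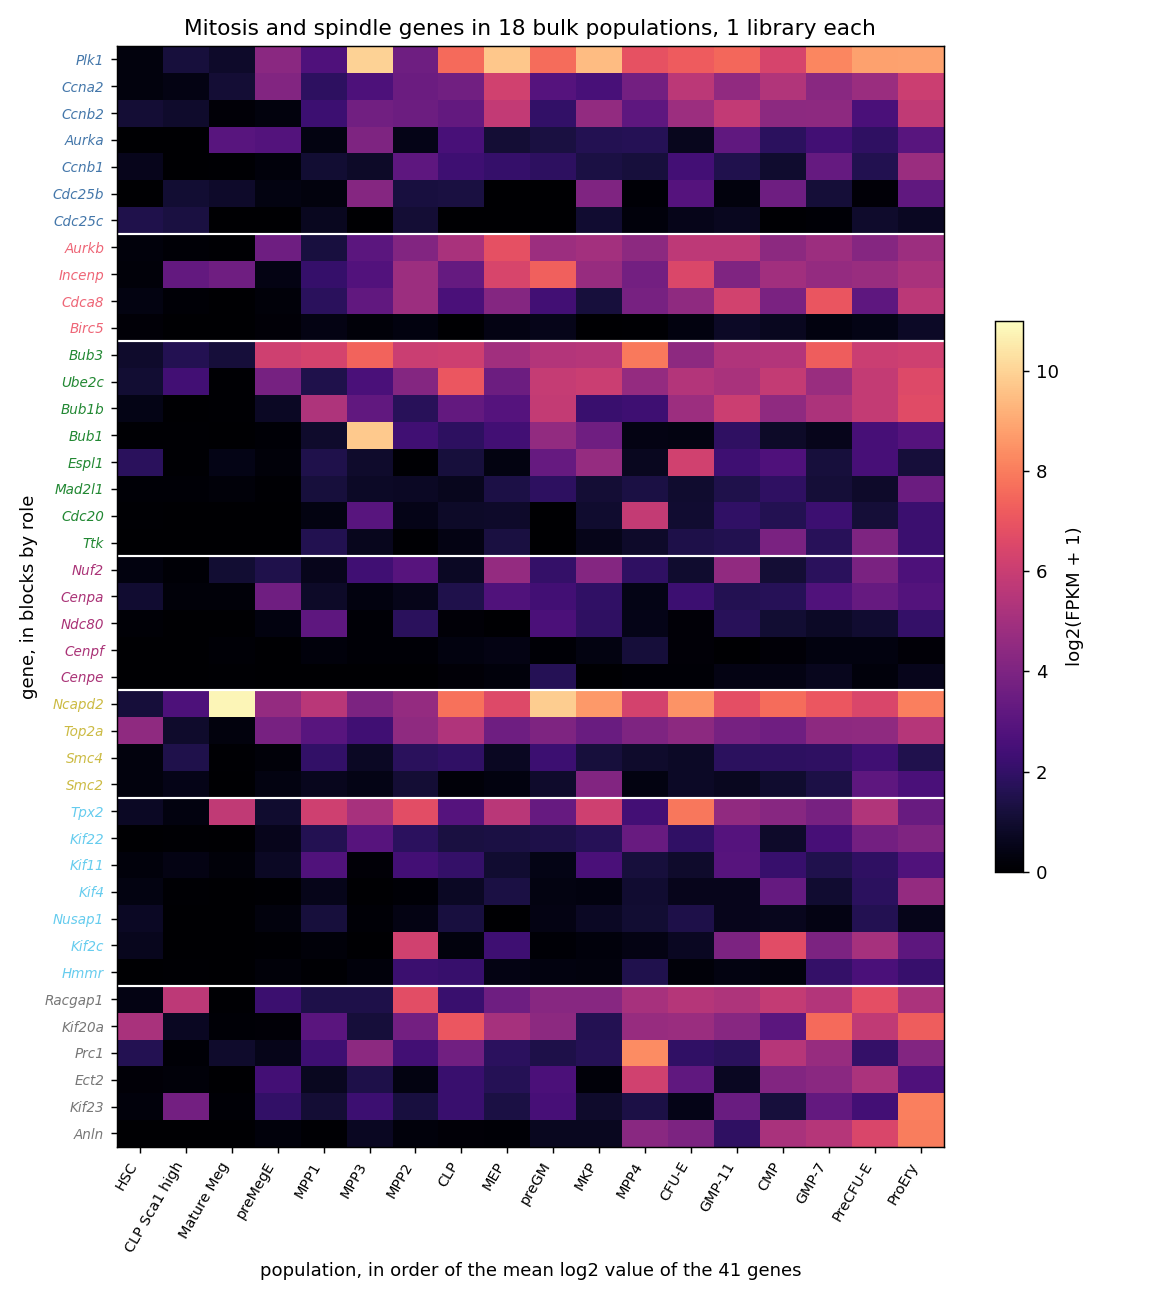
Level of 41 genes (rows, in blocks by role) in 18 bulk populations (columns, in order of their mean), as log2(FPKM + 1) in colour, 1 library each. HSC, CLP Sca1 high and Mature Meg are dark in most rows, ProEry is bright in most, and Plk1 and Ncapd2 are bright in most populations.

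The genes outside the set whose bulk level ran closest to the mean of the members, among 6788 genes and over 18 populations, were Ran (Pearson r = 0.90), Ptbp1 (0.89), Prep (0.88), Xpo1 (0.88), Cct5 (0.86), Fkbp8 (0.86), Kpna2 (0.86), Mcm7 (0.85), Srm (0.85) and Rpn1 (0.85). Ran, Xpo1 and Kpna2 serve nuclear transport, and Mcm7 is a subunit of the replicative helicase. The populations share library depth with these genes, and the correlations are a description.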

How the data were processed

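All values are FPKM as deposited by the authors, 1 per gene and library. TopHat 1.3.3, Cufflinks 1.2.1 and mm9, with Bowtie2 2.2.1 for HSC plate 3, are named in the submitters' processing notes. FPKM is relative to each library's own total, and depth is not known. Low values can be listed at 0 without being absent. The suffix v2 in column names was read as replicate 2.

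From these, plate means over cells were tested with limma 3.58.1 (R 4.3.3; Python 3.11.15 for the rest) on log2(mean + 1), with an intensity trend, in genes averaging FPKM 1 or more over the plates, two-sided at an adjusted p of 0.05. The fit was tested on simulated data. Cells versus no-cell wells carried plate as a term, and bled versus normal carried cell type. The filter on genes per cell was not applied to the no-cell wells. In the bulk table a pseudocount of 1 was used.

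The members and lists were chosen with earlier results of these data known. Named in full were members past a threshold, the 3 highest and 3 lowest per comparison, the 5 most widely detected, the leading gene per role in bulk, Mki67 and Top2a; from the other lists, up to 2 genes per direction by p. Genes named beyond these were chosen after their values were seen. No p is given for counts over the members. Alternatives were other pseudocounts, thresholds, filters, scalings and plates left out. Every index pair was used on more than 1 plate. A gene of the marker lists is not reported here.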

Additional observations from a re-analysis of the deposited data

Results flagged for a closer look

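Wells whose label gives 2 or more cells stand outside the comparisons above. They held more of the 44 genes than the empty wells of their plate on all 7 plates. On HSC plate 1, 16 such wells averaged 5.38 genes, against 1.76 in the no-cell wells. The 2 wells of HSC plate 2 averaged 2 genes against 1.08, and the 5 wells of HSC plate 3 averaged 3.4 against 0.55. On MPP1 plate 1, 13 wells averaged 13.4 against 4.89, and on MPP1 plate 2, 15 wells averaged 15.9 against 6.46. The 7 wells of the bled HSC plate averaged 8 against 0.61, and the 4 of the bled MPP1 plate averaged 15.2 against 2.14. On HSC plate 2 the mean was under that of the plate's wells with 1 cell.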

How the results depend on the processing

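Of the values that answer a comparison, 172 under other settings kept their direction and their side of the threshold, 12 moved and 3 turned; of those for single members, 294 held and 21 turned. The MPP1 minus HSC median of the members was -0.28 without HSC plate 1 and ran from -0.28 to 1.05 over the plates left out; members per cell ran from -0.78 (without HSC plate 1) to 4.34. The share with at least 3 members differed by 13.8 to 35.7 points over plates left out, by 7.76 at any value above 0, and by 1.13 for at least 10 members. The bled median was 0.26 without bled HSC and -1.51 without bled MPP1, its highest and lowest values over the plates left out. The interaction median was 0.64 with the mean taken over cells' log2 values and ran from 1.04 to 2.58 over plates left out; without either bled plate it could not be fitted. The median against empty wells was 3.14 at a pseudocount of 0.1 and 0.43 with the mean over wells' log2 values, and ran from 1.35 to 2.03; 21 to 32 members were called. In bulk, a 3-fold threshold left 11 higher and 1 lower in MPP1, and a pseudocount of 0.1 gave 6 lower in MPP3, and 8 higher and 15 lower in Mature Meg.

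Single members turned as follows. In MPP1 minus HSC, Ttk gave 0.26 without HSC plate 2, Kif23 0.011 without the filter on genes per cell, and Aurka -0.60 without HSC plate 1; their ranges over plates left out were -1.80 to 0.26, -1.08 to -0.37 and -0.60 to 3.34. In bled minus normal, Prc1 gave 0.064 without bled HSC (range -3.57 to 0.064), Incenp -0.12 without the filter on genes per cell, and Kif4 -0.091 and Aurkb -1.70 without bled MPP1 (ranges -0.091 to 1.39 and -1.70 to 3.35). In the interaction, Plk1, Smc4 and Nuf2 gave 0.022, 0.48 and 0.13 with the mean over cells' log2 values, and Nuf2 ran from -2.10 to 0.44 over plates left out. Against empty wells, Incenp gave 0.60 with only empty wells under 1000 genes, 0.45 at a pseudocount of 0.1 and 0.078 with the mean over wells' log2 values, and ran from -0.63 to 0.29; Racgap1 gave -0.086 with empty wells under 1000 genes and ran from -0.41 to 0.86. The causes were not tested.

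With the replicate number as a replicate block, 0 members were called between MPP1 and HSC, the median stayed 0.40, and 58 genes in all were called in place of 1. The deviations of same-numbered plates had r = 0.04 over 9833 genes, so the numbers are not shown to pair the plates. With HSC plate 3 added, the medians were 0.90 (MPP1 minus HSC), -0.51 (bled) and 1.31 (interaction); for the last 2 this was chosen after seeing the data. Without a filter on low genes the interaction called 323 genes and no member. The median of all genes was 0.14 in MPP1 minus HSC without the filter on genes per cell and -0.10 in bled minus normal with plates rescaled, against -0.04 and 0.01. Groups of 2 plates or 1, unknown depth and filled empty wells limit these comparisons.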
